A study of Homo sapiens with 4 samples.

Results

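Molecular chaperones of the heat shock protein (HSP), J protein and CCT families were examined in HCT116, an established human colon cancer cell line, after stable expression of short hairpin RNA against the long non-coding RNA N-BLR. The members were every probe whose gene name on the array began with HSPA, HSPB, HSPC, HSPD, HSPE, HSPH, HSP90, DNAJA, DNAJB, DNAJC, HSF and a digit or CCT and a digit, or was TCP1, BAG3, AHSA1 or STIP1. These were 147 of the 41000 different probes, with 94 of the 30982 gene names, and all 147 are accounted for here. By known location they fell into 90 cytosolic probes (54 genes), 21 probes of the endoplasmic reticulum (ER; 12 genes), 10 mitochondrial probes (7 genes) and 6 probes of the heat shock transcription factors (4 genes). The remaining 20 probes (17 names) met the rule but were placed in none of these lists. Of them, 15 carry names of the form HSPC and digits, which come from a cDNA collection and do not mark heat shock proteins. The rest include DNAJC4, a J protein that was given no compartment here.

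The 2 clones, N-BLR shRNA #3-1 and N-BLR shRNA #4-7, are each 1 selected clone, and both were compared with an HCT116 clone that carries the empty vector. RNA of each clone was hybridised to 2 arrays, labelled as biological replicates, with the empty vector RNA in the other channel of all 4 arrays. The labels speak of lentiviral transduction and the study's methods of transfection of the hairpin vector with drug selection. The labels put the clone in Cy5 and the empty vector control in Cy3 on every array, so values are log2 ratios of Cy5 over Cy3, where 1 is a doubling. No array has the dyes exchanged and the control is 1 sample, so a change common to both clones cannot be told apart from a property of the control clone or of the dyes.

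Chaperones help other proteins to fold. In the cytosol, HSP70 proteins bind short hydrophobic stretches of unfolded chains in a cycle driven by ATP, J proteins bring them clients and start the hydrolysis of ATP, and exchange factors such as BAG3 and the HSP110 protein HSPH1 release the nucleotide. HSP90 acts later, on nearly folded clients such as kinases and steroid receptors, and the ring-shaped chaperonin CCT folds actin and tubulin. The ER has its own set around HSPA5 (BiP) and HSP90B1 (GRP94), which the unfolded protein response induces, and mitochondria theirs around HSPA9, HSPD1 (HSP60) and HSPE1 (HSP10). Many of the cytosolic genes are induced by the transcription factor HSF1 through heat shock elements, and tumour cells often hold high levels of them.

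Chaperone probes rose more often than they fell. Here and below, higher and lower mean in Cy5 than in Cy3. The direction read from the labels is opposite to the one the study takes for its array comparison, and for its PCR and antibody measurements of adhesion markers in these clones. Whether the labelled dyes are exchanged was not tested, and if they are, each sign below turns. Of the 147 member probes, 70 were higher and 10 lower in clone #3-1 at an unadjusted p under 0.001 (limma's moderated test, the threshold of the study's methods), while 16.2% of all 41000 probes were higher and 16.4% lower. In clone #4-7, 61 were higher and 10 lower, with 16% and 15% of all probes. In both clones 45 member probes were higher and 4 lower, where 7.76% and 7.64% of all probes were. Higher probes thus made up 47.6% of the members in clone #3-1 and 41.5% in clone #4-7, whereas the share of lower ones, 6.80% in each, was below that of all probes. The median log2 ratio of the members was 0.20 in clone #3-1 and 0.14 in clone #4-7, beside 0.01 over all probes in each. RNA came from whole cultures, so a change in all cells and a larger one in some cells cannot be told apart.

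Dim probes passed less often than brighter ones, and chaperone probes are bright. Of all probes with a mean log2 intensity under 8, 4.41% were higher in clone #3-1 and 4.56% in clone #4-7. In the classes from 8 upward these shares were 27.1% to 28.7% and 26.1% to 31.2%. Of the 147 members, 134 (91.2%) were well above background in both channels on all 4 arrays, against 65.7% of all probes. Among all probes that bright, 24.0% were higher in clone #3-1 and 23.5% in clone #4-7. In the brightest class, a mean log2 intensity of 14 and over, 22 of the 31 listed chaperone probes (71.0%) were higher in clone #3-1 and 24 (77.4%) in clone #4-7, against 28.1% and 31.2% of all 2180 probes of that class. The share of the listed probes that were higher exceeded that of all probes in each class from 8 upward in both clones. Of the 25 listed probes under 8, 2 were higher in clone #3-1 and 0 in clone #4-7. The part that brightness has in the counts beyond these classes was not tested.

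**Figure D1:**
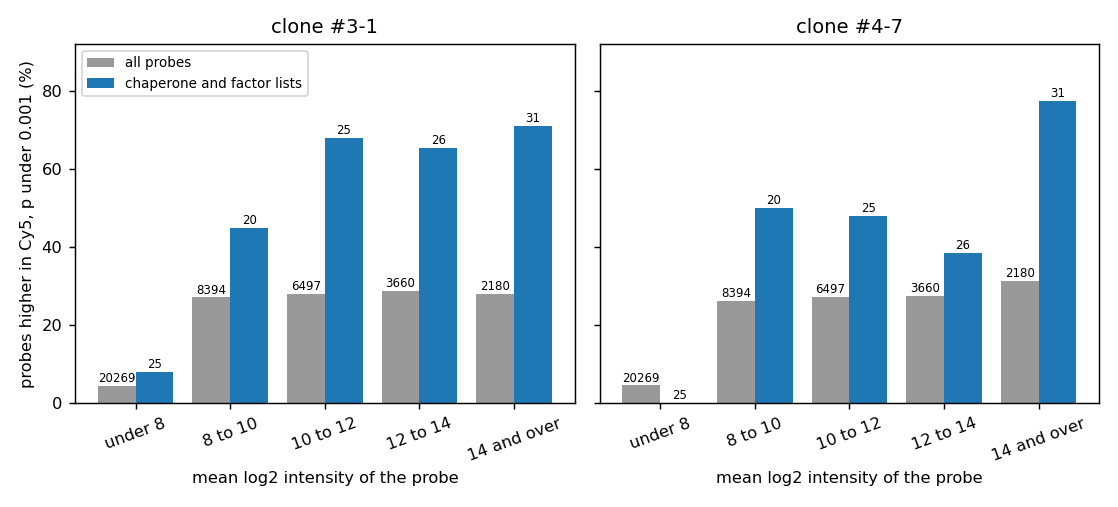
Percent of probes higher in Cy5 at p under 0.001 (vertical axis) in 5 classes of mean log2 intensity (horizontal axis), for all probes (grey) and for probes of the chaperone and transcription factor lists (blue), with the number of probes above each bar. The blue bars stand above the grey ones in the 4 classes from 8 upward in both clones, and reach 71.0% and 77.4% in the brightest.

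Cytosolic and mitochondrial chaperones passed as higher far more often than as lower in both clones. In clone #4-7, ER chaperones passed in each direction about as often as all probes well above background. The median log2 ratio of the cytosolic probes was 0.30 in clone #3-1, with 49 of 90 higher and 5 lower, and 0.23 in clone #4-7, with 45 higher and 5 lower. Mitochondrial probes had medians of 0.28 and 0.20, with 7 of 10 higher in clone #3-1 and 5 in clone #4-7, and 0 lower in either. ER probes had a median of 0.20 in clone #3-1, with 10 of 21 higher and 1 lower. In clone #4-7 their median was 0.05, with 5 higher and 4 lower, and with 1 probe a gene this median was -0.0517, so its sign is not settled. These counts are 23.8% and 19.0% of the ER probes, near the 23.5% and 21.9% of all probes well above background in that clone. Counted by the brightest probe of each gene, 6 of 12 ER genes were higher in clone #3-1 and 1 of 12 in clone #4-7, beside 26 and 27 of 54 cytosolic and 6 and 4 of 7 mitochondrial genes. The lists were described by these counts and were not tested against each other.

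The most raised probe among cytosolic HSP70 proteins was 1 of the 3 named for the stress-inducible HSPA1A. The probe A_23_P111132, listed for HSPA1A alone (hg17 chr6:31893470-31893529), gave 2.85 and 2.89 on the arrays of clone #3-1 and 2.62 and 2.64 on those of clone #4-7. It was 7.31-fold higher in clone #3-1 (log2 2.87, SE 0.029, n = 2 arrays, limma adjusted p = 5.7e-06) and 6.18-fold higher in clone #4-7 (2.63, SE 0.029, adjusted p = 4.3e-06), and stood 9th and 13th from the top of all 41000 probes. The other probes named HSPA1A are listed for both HSPA1A and HSPA1B, near-identical neighbouring genes of the inducible HSP70, and their sequences are shown since signal of the paired genes cannot be told apart on them.
A_24_P123616 (hg17 chr6:31892924-31892983): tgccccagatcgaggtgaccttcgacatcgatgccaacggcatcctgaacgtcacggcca
A_24_P682285 (hg17 chr6:31892373-31892432): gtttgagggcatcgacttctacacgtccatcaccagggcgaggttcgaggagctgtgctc
These gave 1.28 and 1.32, and 1.36 and 1.32, in clone #3-1, and 0.86 and 0.88, and 0.89 and 0.94, in clone #4-7. All 3 probes agreed in direction on every array, but the fold of the shared probes was 2.46 and 2.53 in clone #3-1 and 1.83 and 1.89 in clone #4-7. The rank of HSPA1A thus depends on A_23_P111132, the dimmest of its probes (mean log2 intensity 8.90). In clone #3-1 the shared probes, at mean log2 ratios of 1.30 and 1.34, lay below HSPH1 (1.38). In clone #4-7, at 0.87 and 0.92, they lay below HSPA4L (0.99). No probe named HSPA1B was on the array.

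HSPA8, the constitutive HSP70 of the cytosol, separated the clones. Its probe A_23_P24594 gave 1.11 and 1.18 in clone #3-1 and 0.33 and 0.34 in clone #4-7, a difference of 0.80 (SE 0.045, limma adjusted p = 0.00021). A probe of identical sequence, A_24_P287129, gave 1.03 and 1.11, and 0.28 and 0.21, so the same letters at another place of the array gave close values. The probe A_24_P295745 gave 0.71 and 0.73 against 0.08 and 0.07. The last, A_32_P13728, gave 1.76 on the second array of clone #3-1, while its first lay with the other HSPA8 probes, a gap (SD 0.466) that was the widest of any member, and did not pass the test of the difference. In clone #4-7, 1 of the 4 HSPA8 probes passed, and that one no longer did without either array of clone #4-7 (0.34 and 0.33), while the differences of the first 3 probes passed without any one array.

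HSPH1, the HSP110 exchange factor of HSP70, had the largest difference between the clones of any listed member. It gave 1.40 and 1.36 in clone #3-1 and 0.14 and 0.10 in clone #4-7, so it was 2.60-fold higher in clone #3-1 (adjusted p = 1.4e-05) and 1.09-fold in clone #4-7, where it did not pass p under 0.001. The difference was 1.26 (SE 0.042, adjusted p = 6.7e-05). Its relatives ran the other way. HSPA4 gave 0.18 and 0.16 against 0.71 and 0.65 on one probe and 0.12 and 0.13 against 0.62 and 0.63 on the other, and HSPA4L gave 0.50 and 0.46 against 0.96 and 1.01, each lower in clone #3-1 than in clone #4-7 by 0.50 or 0.51 with an adjusted p between 0.00052 and 0.00078. HSPA2, best known from the testis, also stood higher in clone #4-7 (0.61 and 0.66) than in clone #3-1 (0.33 and 0.26). HSPA14, which works at the ribosome, was higher in both clones, at 0.50 and 0.52 and at 0.30 and 0.30. In all, 12 of 18 HSP70 and HSP110 probes were higher and 0 lower in clone #3-1, and 9 were higher and 1 lower in clone #4-7, with 6 probes above and 4 below in the difference between clones. Over all probes 11% lay above and 11.5% below in that difference.

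In the HSP90 pair, all 4 probes of HSP90AA1, the inducible form, were higher in both clones, with log2 ratios between 0.57 and 1.16 in clone #3-1 and between 0.29 and 0.82 in clone #4-7. The highest, A_23_P162866, gave 1.16 and 1.15, and 0.88 and 0.76 (adjusted p = 2.8e-05 and 7.6e-05). Of HSP90AB1, the constitutive form, 0 of 3 probes passed in either clone, and their log2 ratios lay between -0.09 and -0.03 in clone #3-1 and between 0.03 and 0.18 in clone #4-7. AHSA1, which activates the ATPase of HSP90, gave 0.55 and 0.56, and 0.59 and 0.61. STIP1 (HOP), which hands clients from HSP70 to HSP90, gave 0.34 and 0.36, and 0.58 and 0.52, on its first probe, which did not pass in clone #3-1 without the second array of that clone (0.34). Thus 7 of 10 probes of this list were higher in each clone, the same 7, and 0 were lower. The lowest HSP90AA1 probe, A_32_P199252, did not pass in clone #4-7 without either array of that clone (0.29 and 0.28).

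Of the small heat shock proteins in the list, which hold unfolded proteins without ATP, HSPB1 (HSP27) was higher and the rest were not. Its 3 probes gave log2 ratios of 0.87, 0.89 and 1.12 in clone #3-1 and 0.74, 0.80 and 0.97 in clone #4-7, all 6 past the threshold. HSPB2, a muscle member, gave -0.62 and -0.50 in clone #3-1 and 0.09 and -0.08 in clone #4-7 at a low mean log2 intensity of 7.20. HSPB8, which works with BAG3, gave -0.26 and -0.26, and 0.23 and 0.13. Both were lower in clone #3-1, HSPB2 no longer so without the first array of that clone (-0.48), and neither passed in clone #4-7. The probes of HSPB3 and HSPB7 and 1 of the 2 of HSPB9 were not well above background on all arrays, and HSPB6 and the other HSPB9 probe passed in neither clone. The list median was -0.03 in clone #3-1 and 0.00 in clone #4-7. CRYAB, a small heat shock protein whose name the rule does not match, was also higher in both clones. Its probe gave 0.84 and 0.88, and 0.88 and 0.88, at a low mean log2 intensity of 7.56. It is counted below with the other cytosolic genes of protein homeostasis.

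Of 33 probes of cytosolic or nuclear J proteins, 17 were higher and 2 lower in clone #3-1, and 14 higher and 3 lower in clone #4-7. DNAJA1, a main partner of HSPA8, was 1.81- to 2.05-fold higher: its probes gave 0.96 and 0.96, and 0.99 and 1.08, in clone #3-1, and 0.87 and 0.84, and 1.02 and 0.98, in clone #4-7. DNAJB1 (HSP40), the heat-inducible J protein, gave 0.83 and 0.79 in clone #3-1 (1.75-fold) and 0.13 and 0.08 in clone #4-7 (1.07-fold, not past the threshold), and differed by 0.71 (SE 0.043, adjusted p = 0.00027). DNAJC9, a J protein that also binds histones, went the same way, with 1.04 and 1.02 against 0.30 and 0.30 (difference 0.73, SE 0.039, adjusted p = 0.0002), though in clone #4-7 it did not pass without either of that clone's arrays (0.30 each). DNAJB4 went the other way, with 0.44 and 0.39 against 0.83 and 0.81 on its brighter probe.

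In clone #3-1 the lowest cytosolic J protein probes were those of DNAJB2 and DNAJC12, and in clone #4-7 those of DNAJC12 and DNAJA5. DNAJC12, a partner of the aromatic amino acid hydroxylases, gave -0.79 and -0.66, and -0.53 and -0.64 (mean log2 ratios -0.72 and -0.59), and passed in both clones, though not in clone #4-7 without its second array (-0.56). The brighter DNAJB2 probe, A_24_P102981, gave -0.84 and -0.80 in clone #3-1 and -0.04 and -0.02 in clone #4-7. The dimmer one gave -0.16 and -0.24, and 0.30 and 0.33, so the probes of this neuronal J protein differed in level but both lay lower in clone #3-1, by 0.79 and 0.51. Without the second array of clone #4-7 the latter difference did not pass (-0.526), nor did the dimmer probe in clone #4-7 without either array of that clone (0.32 each). Probes of DNAJA5, now named DNAJC21, disagreed in clone #4-7, where 2 were lower and 1 higher, the only listed gene whose probes passed in opposite directions in a clone.

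Of the 5 probes of the listed exchange and binding factors of heat shock proteins (BAG3, HSPBP1 and HSPBAP1), 4 were higher in clone #3-1 (median 0.34) and 2 in clone #4-7 (median 0.17), with 0 lower. The probe that was higher in neither clone was that of HSPBAP1, at mean log2 ratios of -0.02 and -0.09. BAG3, an HSF1 target that couples HSP70 to autophagy, gave 0.29 and 0.26, and 0.49 and 0.50, on one probe and 0.32 and 0.35, and 0.41 and 0.42, on the other. The first did not pass in clone #3-1 without either array of that clone (0.27 and 0.29) or the second of clone #4-7 (0.28), nor the other in clone #4-7 without its second array (0.41). Both HSPBP1 probes were higher in clone #3-1, at 0.37 each, and at 0.16 and 0.17 in clone #4-7 they did not pass.

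Of the 14 probes of CCT, 6 were higher in clone #3-1 and 10 in clone #4-7, with 1 lower in each. By the brightest probe of each of its 9 genes, 3 were higher in clone #3-1 and 7 in clone #4-7. The bright TCP1 (CCT1) probe gave 0.63 and 0.58, and 0.53 and 0.50. CCT2 gave 0.53 and 0.56, and 0.39 and 0.44, and the bright CCT5 probe 0.56 and 0.49, and 0.55 and 0.63. These 3 subunits were 1.34- to 1.52-fold higher in each clone, and CCT2 did not pass in clone #4-7 without its second array (0.39). The other TCP1 probes, higher in both clones at mean log2 ratios of 0.31 to 0.36, did not pass in clone #4-7 without either of its arrays (0.31 to 0.34). For 1 of them, A_32_P501400, the listed position is on chromosome 7 (hg17 chr7:42607875-42607934). The remaining TCP1 probes are listed on chromosome 6, and which copy A_32_P501400 reads was not tested.

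Other subunits were raised in clone #4-7 without passing in clone #3-1. CCT8 gave 0.02 and -0.03 in clone #3-1 and 0.38 and 0.37 in clone #4-7 on its bright probe, whose difference of -0.38 passed (adjusted p = 0.0016). Its dim probe, A_24_P936671 (mean log2 intensity 7.16), had a mean log2 ratio of 0.06 in each clone. It passed neither in a clone nor in the difference (0.003), so the split of CCT8 depends on the probe. CCT4, CCT6A and CCT7 had log2 ratios of 0.60, 0.29 to 0.38 and 0.48 in clone #4-7 and of 0.28, 0.07 to 0.19 and 0.19 in clone #3-1, but their differences did not pass. CCT3 gave -0.06 in each clone and passed in neither. The single lower probe was that of CCT6B, the testis form of CCT6, at -0.58 and -0.40 and a mean log2 intensity of 7.90, and without the first array of clone #4-7 it did not pass there (-0.32). A dim second CCT5 probe gave 0.36 and 0.50, and -0.24 and -0.27, unlike the bright one.

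**Figure D2:**
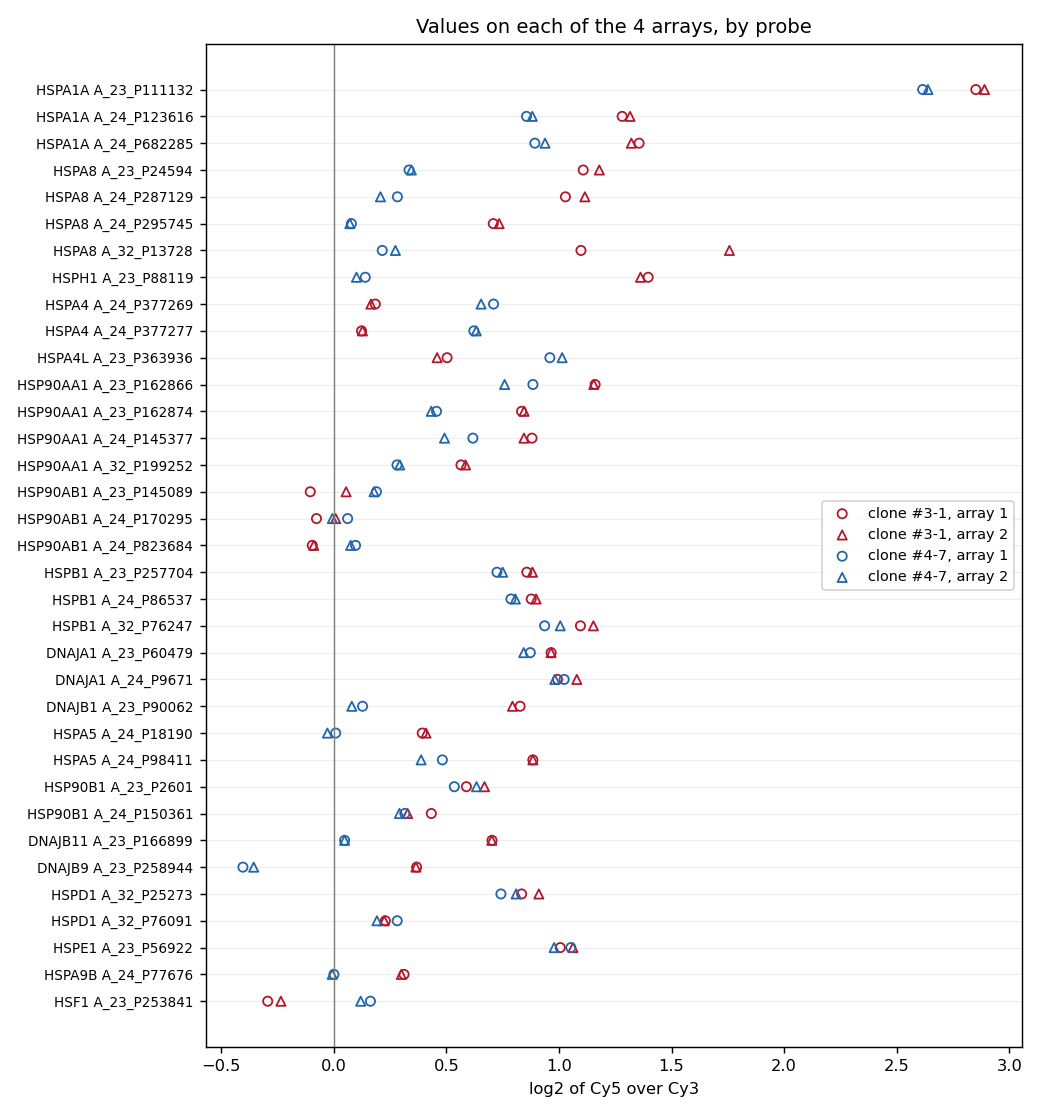
Log2 ratio of Cy5 over Cy3 (horizontal axis) on each array for every probe of 17 chaperone genes and HSF1 (vertical axis), with clone #3-1 in red, clone #4-7 in blue, array 1 as circles and array 2 as triangles. The arrays of a clone lie close together except for HSPA8 A_32_P13728, and the clones stand apart for HSPA8, HSPH1, DNAJB1, DNAJB11 and DNAJB9 but overlap for HSPE1.

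In the ER, the central chaperones were higher in clone #3-1. HSPA5 gave 0.88 and 0.88 in clone #3-1 and 0.48 and 0.39 in clone #4-7 on A_24_P98411. On A_24_P18190, whose listed position is wider than the probe, as across an intron (hg17 chr9:125078978-125080023), it gave 0.39 and 0.41, and 0.01 and -0.03. The levels differed between probes, but the difference between clones was close, 0.45 and 0.41 (adjusted p = 0.0015 and 0.0011). Neither passed without the second array of clone #4-7 (0.40 and 0.39) or without the second of clone #3-1 (0.45 and 0.40), nor the first without the first of clone #3-1 (0.45). HSP90B1 was higher in both clones alike, at 0.59 and 0.67, and 0.53 and 0.63, on its brighter probe. The dimmer one, at mean log2 ratios of 0.38 and 0.30, did not pass in clone #3-1 without the first array of that clone (0.33) or the second of clone #4-7 (0.38), nor in clone #4-7 without either of its own (0.29 and 0.31).

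Of the ER J proteins, probes of DNAJB11, DNAJB9, DNAJB12 and DNAJC10 differed between the clones, and those of DNAJB14, DNAJC1, DNAJC3, DNAJC14, DNAJC16 and DNAJC18 did not pass that test. DNAJB11 (ERdj3), which delivers clients to HSPA5, gave 0.70 and 0.70 in clone #3-1 and 0.05 and 0.05 in clone #4-7 (difference 0.65, SE 0.038, adjusted p = 0.00025). DNAJB9 (ERdj4), a repressor of the stress sensor IRE1, was higher in clone #3-1 and lower in clone #4-7, at 0.37 and 0.36 against -0.40 and -0.36 (difference 0.75, adjusted p = 0.00021), and its value in clone #4-7 did not pass without the second array of that clone (-0.40). DNAJC10 (ERdj5), a disulfide reductase, was lower in both clones on 1 probe, at -0.42 and -0.42, and -0.44 and -0.40. The other gave -0.13 and -0.17 in clone #3-1, where it did not pass, and -0.63 and -0.63 in clone #4-7, where it was lower. A DNAJB14 probe, A_24_P334402, was higher in both clones, at 0.33 and 0.31, and 0.51 and 0.44, and the other passed in neither. DNAJC3 (P58IPK), which restrains the kinase PERK, gave 0.28 and 0.35, and 0.22 and 0.15, and passed in clone #3-1, but not without either array of that clone (0.35 and 0.28) or the second of clone #4-7 (0.32). Of DNAJB12, a J protein of ER quality control, 2 neighbouring probes were higher in clone #3-1, at 0.39 and 0.44, with -0.25 and -0.24 in clone #4-7, and the first of these rests on 1 array of clone #4-7 because the spot on the other was an outlier. The remaining DNAJB12 probe passed in neither clone. Across the ER list, 7 of 21 probes were above and 0 below in the difference of clone #3-1 minus clone #4-7. By the brightest probe of each gene, 4 of 12 ER genes were above and 0 below. The cytosolic probes lay 13 above and 12 below of 90. Over all probes these shares were 11% and 11.5%, and of the 26917 probes well above background 4394 lay above and 4504 below. The lists were not tested against these shares.

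**Figure D3:**
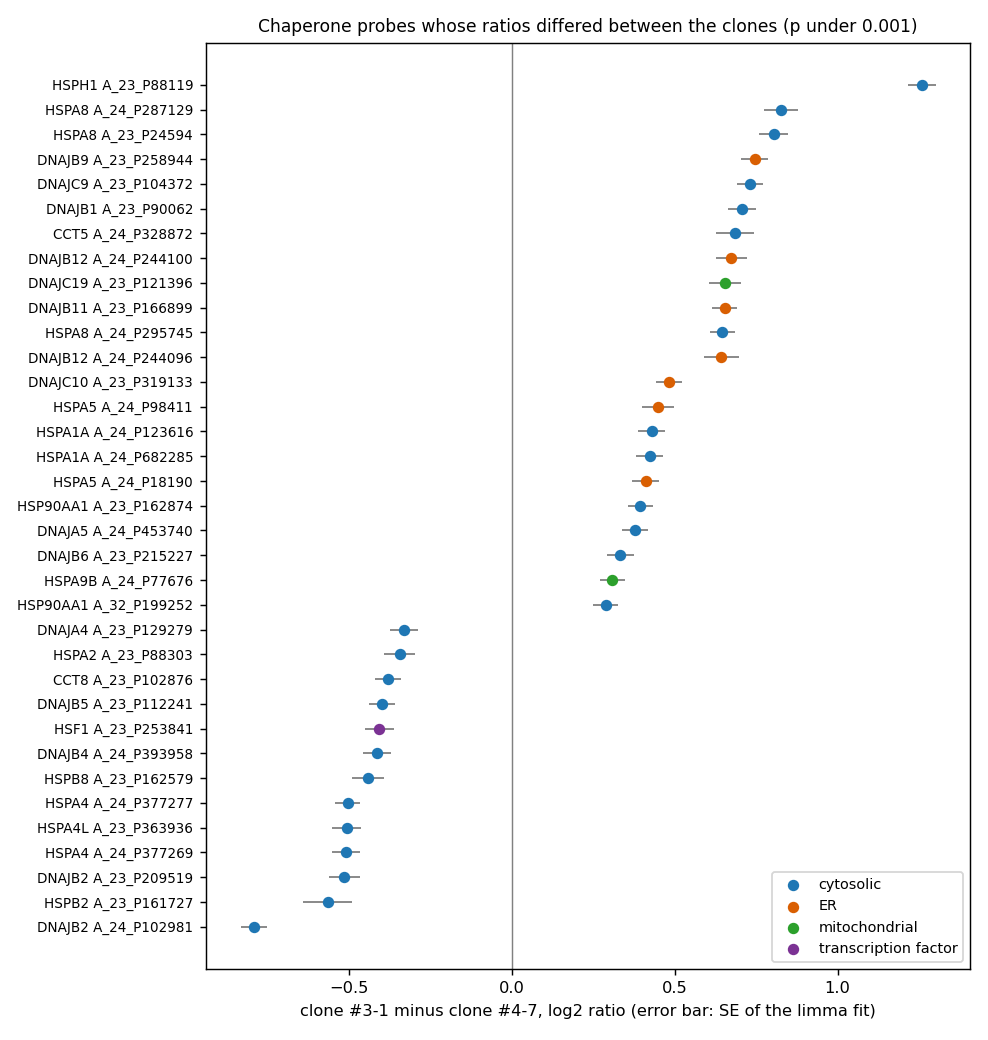
Difference in log2 ratio between the clones (clone #3-1 minus clone #4-7, horizontal axis) for the 35 listed probes past p under 0.001 (vertical axis), with the standard error of the limma fit as bars and colours by compartment. HSPH1 stands farthest to the right at 1.26 and DNAJB2 farthest to the left at -0.79, and the 7 ER probes all lie to the right of 0.

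The mitochondrial chaperonin genes HSPE1 and HSPD1 were higher in both clones on 1 probe each. HSPE1 gave 1.01 and 1.06 in clone #3-1 and 1.05 and 0.98 in clone #4-7, 2.05- and 2.02-fold (adjusted p = 2.7e-05 and 3.6e-05). HSPD1, its partner ring, gave 0.83 and 0.91, and 0.74 and 0.81, on A_32_P25273 near the end of the gene. Its other probe, A_32_P76091, gave 0.23 and 0.22, and 0.28 and 0.19. It did not pass in clone #3-1, and in clone #4-7 it passed but not without any one array (0.19 to 0.28), so the call depends on the probe. The genes lie head to head on chromosome 2, with start windows that overlap, and their differences between clones were 0.02 for HSPE1 and 0.10 and -0.01 for HSPD1, none past the threshold.

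HSPA9 (mortalin; HSPA9B on the array), the mitochondrial HSP70, gave 0.31 and 0.30 in clone #3-1 and 0.00 and -0.01 in clone #4-7, and this difference of 0.31 passed (adjusted p = 0.0025), but not without any one array (0.30 to 0.32) or with the replicate number as a block, and the value in clone #3-1 did not pass without either array of that clone (0.30 and 0.31). DNAJA3 (TID1), its J partner, had log2 ratios of 0.21 and 0.28 and passed in both, but in clone #3-1 not without any one array (0.205 to 0.212) and in clone #4-7 not without either of its own (0.258 and 0.293). DNAJC15, a J protein of the import motor, gave 0.35 and 0.33, and 0.44 and 0.43. The DNAJC19 probes disagreed, with 0.42 and -0.24 on one and -0.14 and -0.12 on the other in the clones in turn.

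Of the 6 probes of the heat shock transcription factors, 1 was higher and 1 lower in clone #3-1, and 1 was higher and 0 lower in clone #4-7. A count of 1 is 16.7% of this list, near the 16.2% higher and 16.4% lower of all probes in clone #3-1 and the 16% higher in clone #4-7. HSF1, the main activator of the heat shock response, gave -0.29 and -0.24 in clone #3-1, where it was lower (adjusted p = 0.0014), and 0.16 and 0.12 in clone #4-7, where it did not pass. The difference was -0.41 (SE 0.045, adjusted p = 0.0016). The value in clone #3-1 did not pass without any one array (-0.29 to -0.24), and the difference not without the first of clone #3-1 (-0.39) or either of clone #4-7 (-0.38 and -0.43). HSF2 was higher in both clones on A_23_P111360, at 0.47 and 0.46, and 0.39 and 0.47, though not in clone #4-7 without its second array (0.405), and passed in neither on its other probe. Both HSF5 probes were not well above background.

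Promoter sequence was set beside these values. The 250 bases before and 50 after the start of each gene (RefSeq, GRCh38.p14) were searched for paired heat shock units, GAANNTTC or TTCNNGAA, which each read the same on both strands. A window held a pair in 46.9% of the 49 cytosolic genes that had a window, in 3 of 7 mitochondrial genes and in 0 of 11 ER genes, against 16.2% of all 27305 genes. Alternating runs of 3 units were in 6 cytosolic genes and 1 mitochondrial gene of those, and in 0.608% of all genes. The ER stress element, CCAAT and CCACG with 9 bases between, stood in HSPA5 and HSP90B1 alone of the members (either strand), and in 0.0916% of all genes.

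The bases before the start are shown for members with such matches that differ in their values, with heat shock units in capitals, or the ends of the ER stress element for HSPA5, 5′ to 3′ on the gene's strand.
HSPA1A (chr6:31815293-31815542, + strand): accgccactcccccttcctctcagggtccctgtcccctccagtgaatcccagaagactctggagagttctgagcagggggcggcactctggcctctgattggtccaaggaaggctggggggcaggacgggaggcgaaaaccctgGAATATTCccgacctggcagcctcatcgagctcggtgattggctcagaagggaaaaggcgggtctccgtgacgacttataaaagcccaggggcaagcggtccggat
HSPA8 (chr11:123062137-123062386, - strand): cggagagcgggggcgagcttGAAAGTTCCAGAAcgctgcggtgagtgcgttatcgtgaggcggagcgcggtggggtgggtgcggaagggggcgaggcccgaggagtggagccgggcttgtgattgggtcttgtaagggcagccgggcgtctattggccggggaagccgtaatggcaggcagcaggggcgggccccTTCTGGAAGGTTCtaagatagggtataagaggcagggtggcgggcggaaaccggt
DNAJB1 (chr19:14518398-14518647, - strand): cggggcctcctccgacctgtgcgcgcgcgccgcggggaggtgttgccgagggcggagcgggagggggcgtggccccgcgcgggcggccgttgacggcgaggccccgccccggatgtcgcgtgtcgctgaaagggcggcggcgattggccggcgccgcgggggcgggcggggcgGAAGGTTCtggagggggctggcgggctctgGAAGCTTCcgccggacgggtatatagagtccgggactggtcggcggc
HSP90AA1 (chr14:102087045-102087294, - strand): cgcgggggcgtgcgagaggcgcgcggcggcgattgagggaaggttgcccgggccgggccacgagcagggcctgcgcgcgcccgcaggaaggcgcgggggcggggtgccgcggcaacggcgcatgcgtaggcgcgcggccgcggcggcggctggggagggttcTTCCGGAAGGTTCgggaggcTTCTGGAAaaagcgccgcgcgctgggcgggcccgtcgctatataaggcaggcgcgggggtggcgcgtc
HSP90AB1 (chr6:44247693-44247942, + strand): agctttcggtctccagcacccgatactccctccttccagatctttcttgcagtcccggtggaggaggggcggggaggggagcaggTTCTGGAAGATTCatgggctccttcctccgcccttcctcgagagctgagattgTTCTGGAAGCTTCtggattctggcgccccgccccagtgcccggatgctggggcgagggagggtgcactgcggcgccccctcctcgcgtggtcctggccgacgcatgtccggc
HSPA5 (chr9:125241344-125241593, - strand): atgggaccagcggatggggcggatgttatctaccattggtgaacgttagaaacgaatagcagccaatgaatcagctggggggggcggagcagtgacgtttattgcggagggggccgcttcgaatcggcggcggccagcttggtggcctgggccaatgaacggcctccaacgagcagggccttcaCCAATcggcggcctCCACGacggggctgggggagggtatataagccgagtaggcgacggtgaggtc
HSPA1A held 1 match, 106 bases before the start, and its probe A_23_P111132 was the most raised of the member probes. HSP90AB1 held 4 matches in 2 runs in the window shown, as HSPA8 did, and was near 0 in both clones where HSPA8 was 1.14 in clone #3-1. HSPH1, raised only in clone #3-1, held 0 matches in its window. A match of letters describes the window and does not show binding. Only exact letters inside the window were searched, so 0 matches does not show that an element is absent. The part of these elements in the values was not tested. DNAJB1, HSP90AA1 and HSP90AB1 have several windows, of which the one with the most matches before the start is shown. Matches stood in 2 of the 3 windows of DNAJB1, 1 of the 2 of HSP90AA1 and 1 of the 3 of HSP90AB1, whereas HSPA8 has 1 window.

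Of the listed genes with a window, 14 of the 28 that were higher in both clones on any probe held a pair of units, and 12 of the other 42 did. These shares describe genes chosen by their values and were not tested.

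Other genes of protein homeostasis, in lists by compartment, gave a different balance in mitochondria in clone #3-1. Of 62 cytosolic probes, 26 were higher and 9 lower in clone #3-1, and 23 higher and 9 lower in clone #4-7. In clone #3-1 these were 41.9% and 14.5%, beside 24.0% and 23.8% of all probes well above background. In clone #4-7 they were 37.1% and 14.5%, beside 23.5% and 21.9%. The ubiquitin gene UBB gave 1.17 and 1.42, and 0.95 and 1.15, on its brighter probe. CHORDC1, an HSP90 cochaperone, gave 0.96 and 0.98, and 0.54 and 0.49, and the HSP90 immunophilin FKBP4 gave 0.37 and 0.39, and 0.63 and 0.64. BAG1, an exchange factor, was higher in clone #3-1 and lower in clone #4-7, at 0.60 and 0.57 against -0.38 and -0.39, and ST13 (HIP) was lower in both on 3 of its 8 probes, at mean log2 ratios of -0.41 and -0.25 on the lowest.

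Of 34 ER probes outside the rule, 16 were higher and 4 lower in clone #3-1 and 14 higher and 7 lower in clone #4-7. In clone #3-1 these were 47.1% and 11.8%, beside 24.0% and 23.8% of all probes well above background. In clone #4-7 they were 41.2% and 20.6%, beside 23.5% and 21.9%, so the share of lower ones was near that background. The highest were SDF2L1, a partner of HSPA5 (1.38 and 1.30, and 0.98 and 0.90), and ARMET (now MANF), a secreted ER stress protein (0.92 and 0.99, and 0.88 and 0.84). HERPUD1, of ER-associated degradation, split the clones as DNAJB9 did, at 0.61 and 0.68 against -0.33 and -0.30. ERO1L, an ER oxidase, split them the other way, at -0.42 and -0.47 against 0.86 and 0.76. Of these probes 10 lay above and 2 below in the difference between clones, where 11% of all probes lay above and 11.5% below. SIL1, an exchange factor of HSPA5, was lower in both, at -0.22 and -0.23, and -0.40 and -0.32.

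Of 22 mitochondrial probes outside the rule, mostly proteases and import factors, 3 were higher and 11 lower in clone #3-1 (median -0.25), and 4 were higher and 3 lower in clone #4-7 (median 0.08). All 22 were well above background. In clone #3-1 these counts were 13.6% and 50%, beside 16.2% and 16.4% of all probes and 24.0% and 23.8% of those well above background. In clone #4-7 they were 18.2% and 13.6%, near the 16% and 15% of all probes. Both were below the 23.5% and 21.9% of probes well above background in that clone. HTRA2, a protease, gave -0.77 and -0.72, and -0.31 and -0.32. CLPB, a disaggregase, gave -0.52 and -0.55 in clone #3-1 and 0.65 and 0.66 in clone #4-7. TRAP1, the mitochondrial HSP90, gave -0.39 and -0.32 in clone #3-1, opposite in sign to HSPD1 and HSPE1. All 13 probes that differed between clones were 2 above and 11 below, where 11% of all probes lay above and 11.5% below.

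Of the 20 probes with names outside the chaperone lists, 3 were higher and 3 lower in clone #3-1, and 5 were higher and 1 lower in clone #4-7. In clone #3-1 these were 15% each way, near the 16.2% and 16.4% of all probes. In clone #4-7 they were 25% and 5%, beside 16% and 15%. HSPC159 (now LGALSL), which is no heat shock protein, had the largest difference between clones of all members, at -0.74 and -0.70 against 0.75 and 0.78. The HSPC152 (TRMT112) probes gave 0.80 to 0.86 on the arrays of clone #3-1 and 0.43 to 0.51 on those of clone #4-7. HSPC047 was lower in both, at mean log2 ratios of -0.53 and -0.55. The J protein DNAJC4 was lower in clone #3-1 on A_24_P15797, at -0.24 and -0.23, and did not pass in clone #4-7. Its other probes passed in neither clone. Conversely, 17 probes of 11 genes whose current symbols would meet the rule carry older names on the array and are not members, among them STCH (HSPA13), an ER HSP70, with 0.55 and 0.73 on its probes in clone #3-1 and 0.46 and 0.16 in clone #4-7.

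Of 36 listed genes with several probes, the probes of 10 differed by more than 0.5 in log2 ratio in a clone, and the median range over a gene's probes was 0.15 in clone #3-1 and 0.25 in clone #4-7. The array-to-array spread over all member probes had a median SD of 0.030 and 0.027. A range over a gene's probes and an SD of 2 arrays are unlike measures, taken here over unlike sets. Whether the choice of probe moves a value more than the choice of array was not tested. Of the 147, 13 were not well above background in both channels on all arrays, 2 were saturated on an array, and 1 value was left out as an outlier.

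Facts of the arrays bear on all of these. The 4 arrays lay on 1 slide, and 68.5% to 72.6% of spots of a channel were well above background. Markers of colon epithelium were well above background for 10 of 12 probes, the exceptions being both probes of VIL1, and markers of other cell types for 4 of 15. Of these epithelial markers the adhesion proteins CDH1 (E-cadherin) and TACSTD1 (EpCAM) had mean log2 ratios of -2.60 and -1.35 and of -1.04 and -0.44 in the clones in turn. The keratin KRT19 had opposite signs in the clones, at -0.80 and 0.36. On their brightest probes KRT8 gave -0.69 and -0.90 and KRT18 -0.10 and -0.37, and CDX2 gave -0.06 and -0.27. The mesenchymal VIM (vimentin) gave 4.45 and 2.38 on A_23_P161190, with signs that turn with the dyes as all others do, and the part of these markers in the chaperone values was not tested. Nothing in the labels says from which cultures the arrays of a clone came, beyond the word biological, so p-values measure only the spread between these arrays, which may be technical.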

How the data were processed

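RNA of each clone and of the empty vector control was measured on 4 two-colour Agilent arrays of 60-base probes on 1 slide. Per the file headers and methods, the authors deposited scanner files with mean and background intensities of both dyes for each spot, and a table of log10 ratios of Cy5 over Cy3, which matched the log ratios of the scanner files. The submitters' processing notes name Agilent Feature Extraction 8.5.1.1. From the deposited intensities, background was corrected by normexp (offset 50), arrays were loess-normalised within and quantile-normalised between, outlier spots were left out and spots of a probe averaged, following the study's methods where they are stated. The log2 ratios of all 41000 probes were fitted in limma 3.58.1 (R 4.3.3) with 1 coefficient a clone and empirical Bayes moderation, and each clone was tested against 0, a test in which the spread of the control does not enter, and the clones were tested against each other. The threshold was an unadjusted p under 0.001, and adjusted p are by Benjamini-Hochberg over all probes. The scripts were tested on simulated data. The precision is limited by 2 arrays a clone.

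The members and lists were chosen with earlier results of these data known. Genes named were fixed central chaperones, the 10 probes highest and lowest in both clones, the 5 with the largest difference each way and the 3 highest and lowest other genes of protein homeostasis. Others were chosen after their values were seen. Replicate numbers did not pair the arrays (correlation of deviations r = -0.013). Alternatives were other background corrections and normalisations, the deposited processed signals and log10 ratios, a filter on dim probes, an intensity trend, the replicate block, each array left out, another threshold, 1 probe a gene and the listed members alone.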

Additional observations from a re-analysis of the deposited data

Results flagged for a closer look

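Differences of clone #3-1 minus clone #4-7 that passed p under 0.001 in limma were picked out among the named members, since the clones carry hairpins against the same RNA and share 1 control sample. HSP70 and HSP110 members above 0 were HSPH1 (1.26), 3 HSPA8 probes (0.804, 0.827 and 0.647) and the HSPA1A probes that HSPA1B shares (0.429 and 0.423), whereas HSPA4 was below (-0.507). The HSP90AA1 probes A_23_P162874 and A_32_P199252 were above by 0.395 and 0.288, and neither passed when any 1 array was left out. Among J proteins, DNAJB1 (0.707), DNAJC9 (0.731) and DNAJB9 (0.746) were above and both DNAJB2 probes below (-0.513 and -0.79). Both HSPA5 probes (0.411 and 0.449), the dim CCT5 probe (0.686) and HSPA9B (0.309) were above. HSF1 (-0.405), the dim HSPB2 (-0.564) and HSPC159 (-1.48), no chaperone, were below. The HSPA1A differences did not pass without either array of clone #4-7 (0.42 and 0.45, and 0.40 and 0.45), nor that of A_24_P682285 without the first of clone #3-1 (0.403), that of the dimmer DNAJB2 probe not without the second array of clone #4-7 (-0.526), that of CCT5 not without the second array of clone #4-7 (0.72), and that of HSPB2 not without any 1 array (-0.705 to -0.467). Losses for HSPA5, HSPA9B and HSF1 are given beside their values.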

How the results depend on the processing

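Over 16 alternatives, 0 of the 2661 values of named probes passed in the opposite direction, 2335 kept direction and side of the threshold, 213 no longer passed, 69 passed newly and 44 others moved. The share of members higher was 1.8 to 3.93 times that of all probes, lowest in clone #4-7 with only probes well above background (52.2% against 29%). With a normexp offset of 0, 5 and 6 members were lower in clones #3-1 and #4-7, 29 higher in both, and 11 above and 6 below in the difference, with medians of 0.343 and 0.25 (cytosolic) and 0.247 (ER, clone #3-1). With plain subtraction 42 and 31 were higher, 4 and 4 lower, 21 higher and 2 lower in both, 9 above and 3 below, with medians of 0.361, 0.275 and 0.27. The processed signals gave 6 and 6 lower, 2 lower in both, 15 above and 6 below, and the log10 ratios 6 lower in clone #3-1, 2 lower in both and 9 below. Their medians were 0.355 and 0.275 (cytosolic), 0.236 and 0.235 (ER, clone #3-1) and 0.316 (mitochondrial, clone #3-1). Aquantile or no normalisation between arrays gave cytosolic medians of 0.323 and 0.197 and a mitochondrial one of 0.289. Probes well above background had medians of 0.337 and 0.286 (cytosolic) and 0.257 and 0.025 (ER). An intensity trend gave 21 and 19 lower, 8 lower in both, 42 above and 30 below. Benjamini-Hochberg adjusted p under 0.05 gave 22, 20, 9, 48 and 33. With 1 probe a gene 40 and 36 of 94 were higher, 6 lower in clone #4-7, 26 higher in both and 11 above, with medians of 0.238 and 0.213 (cytosolic), 0.257 and -0.0517 (ER) and 0.305 and 0.276 (mitochondrial), so the ER median of clone #4-7 has no settled sign. The cause of these moves was not tested, except that 1 probe a gene counts fewer probes.

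Leaving out 1 array gave 55 to 67 members higher in clone #3-1 and 34 to 57 in clone #4-7 (34 without the second array of clone #4-7), 26 to 38 higher in both, 6 to 8 and 5 to 11 lower, 11 to 17 above and 4 to 8 below, with medians of 0.284 to 0.309 and 0.225 to 0.241 (cytosolic) and 0.193 to 0.245 (ER, clone #3-1). A lone array was assumed to vary like those of the other clone. With the replicate number as a replicate block, 66 and 56 members were higher, and of the named values 6 no longer passed and 1 passed newly. The numbers do not pair the arrays. The dim probes, 13 of 147, limit what can be said of their genes.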
